A study of Mus musculus with 32 samples.

Results

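The genes described here code for the amyloid precursor family (App, Aplp1 and Aplp2), the secretases Bace1 and Psen2, beta-synuclein (Sncb), the cellular prion protein (Prnp) and copper/zinc superoxide dismutase (Sod1). They were chosen by name, as 8 of the 44081 genes with a combined 3′UTR read count, together with their 19 of the 74532 separately counted 3′ ends. The RNA came from 16 single hippocampal neurons of embryonic C57BL/6 mice, grown in primary culture for 15 days, with no treatment and no genetic change. The dendrites and the soma of each neuron were aspirated into separate tubes, so that the 32 libraries formed 16 pairs. Neurons 1 to 4 had 3 rounds of aRNA amplification, a linear amplification by in vitro transcription, and the other 12 had 2 rounds. The comparison asked whether the transcripts of these genes differed in abundance between the dendrites and the soma of the same cell.

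App is a membrane protein that is cut by secretases. Cleavage by beta-secretase (Bace1) followed by gamma-secretase, whose catalytic subunit is a presenilin such as Psen2, releases amyloid beta, the peptide that is deposited in Alzheimer's disease. Aplp1 and Aplp2 are relatives of App that lack the amyloid beta sequence. Sncb is a presynaptic protein of the synuclein family, Prnp is a membrane-anchored glycoprotein that can misfold in prion disease, and Sod1 is a cytosolic enzyme that removes superoxide and is mutated in some familial forms of amyotrophic lateral sclerosis.

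Reads counted on 3′UTRs numbered 646521 to 6954420 in the dendrites and 925525 to 21169974 in the somas. The reads carry no molecular identifiers, so a limit derived from a count of reads covers counting error only. The dendrite libraries of neurons 15 and 16 stood apart from the others, with 1570 and 2485 genes of at least 10 reads against a median of 6052.5 over all dendrites, and with 35.8% and 32.4% of their reads on mitochondrially encoded genes against a median of 13.5%. Neuron 5 was the only neuron with more such genes in its dendrites (9871) than in its soma (6889). Interneuron markers were abundant in every library. Their summed level (Gad1, Gad2 and Slc32a1) ranged from 4435 to 19967 normalised reads in dendrites and from 4375 to 52615 in somas. The 6 pyramidal neuron markers summed to medians of 5739 in dendrites (range 1474 to 15629) and 1396 in somas (range 276 to 9482), most of it Map2, with medians of 5393 and 907. All 6 microglial markers had a median of 0 in both compartments. The summed level of 6 astrocyte markers was 184 at the median in dendrites (range 0 to 1173) and 38.8 in somas (range 0 to 537), with Gfap, Aldh1l1 and S100b at a median of 0 in both. The 5 oligodendrocyte markers summed to medians of 15.9 (range 0 to 422) and 4.42 (range 0 to 379). The part of such RNA in the results below was not tested.

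Of the 8 genes, Sod1 had a higher normalised level in the dendrites than in the soma in 13 of 16 neurons, and the other genes had a higher level in the soma in 11 to 14 neurons. With edgeR's quasi-likelihood test and the neuron as a block, none of the 8 passed an adjusted p of 0.05 in either direction. The calls over all 10880 genes tested amounted to 0.827% in the direction of the dendrites and 5.71% in that of the somas, while the unadjusted p was below 0.05 for 3287. Of the 8 genes, all of which passed the filter on low reads, App (0.0490), Aplp2 (0.0294) and Psen2 (0.00595) were below it. DESeq2 with the same pairing, the tool that the study's methods name, called 5 of them higher in somas (App, Aplp2, Prnp, Bace1 and Psen2) and none higher in dendrites, and it called 46.2% of the 10880 genes higher in somas. Over all genes the median fold change was -1.49 on the log2 scale, and 78.8% of the genes lay below 0. Fold changes are therefore also given relative to that median, and normalised reads are raw reads divided by the median-of-ratios size factor of the library.

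**Figure D1:**
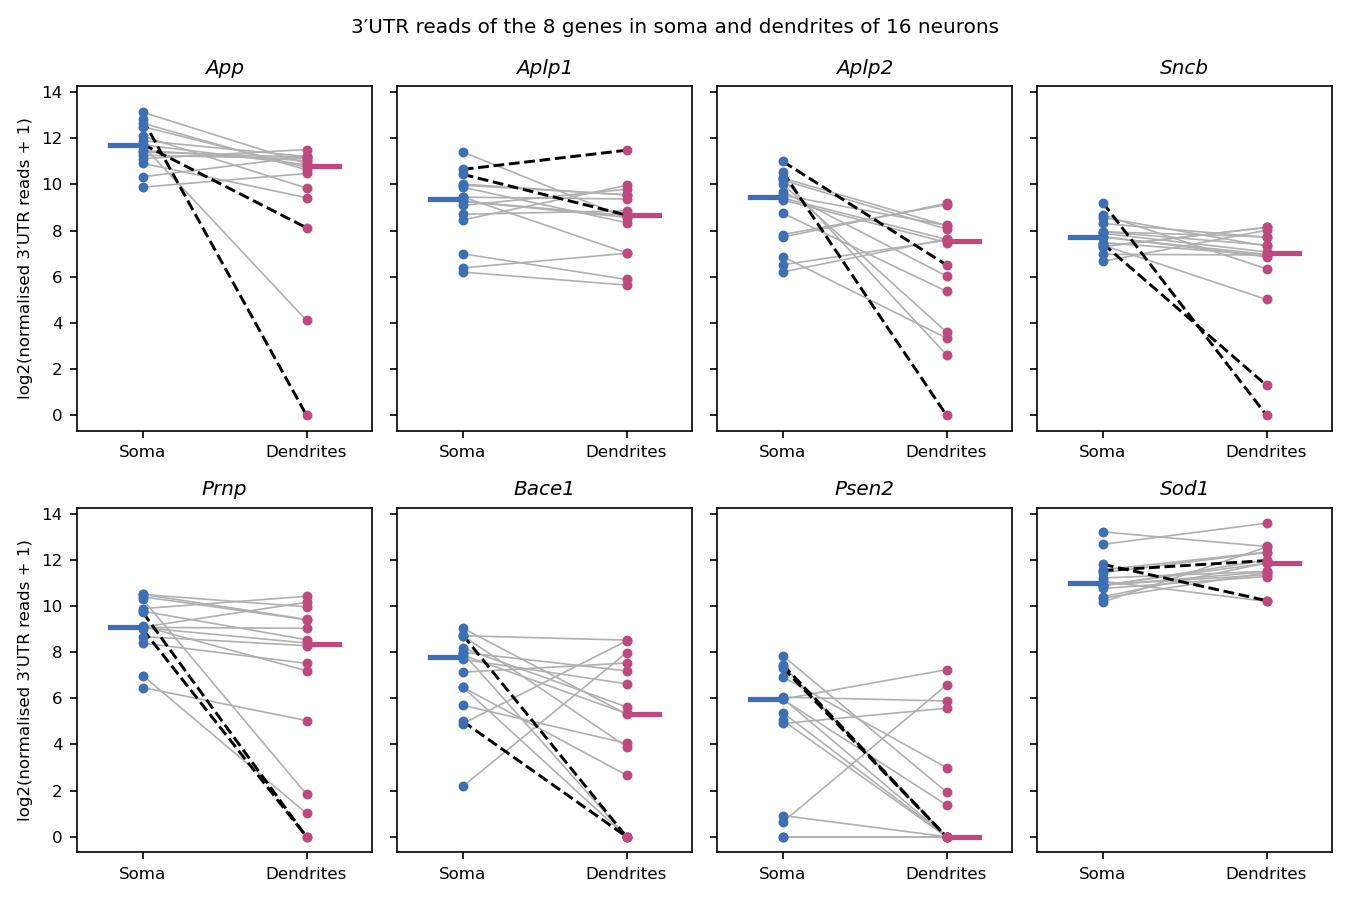
Levels of the 8 genes in the soma (blue) and the dendrites (pink) of 16 neurons, on the vertical axis as log2 of normalised 3′UTR reads plus a pseudocount of 1. Each line joins the compartments of a neuron, dashed for neurons 15 and 16, and thick bars are medians. Sod1 lines rise in 13 of 16 neurons, and Psen2 sits at 0 reads in 9 of 16 dendrites.

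App (chr16:84949685-85173766 of GRCm38, minus strand) had 0 to 2913 normalised reads in dendrites (median 1775) and 942 to 8926 in somas (median 3321). The groups overlapped, and the soma was higher in 13 of 16 neurons, all but neurons 2, 6 and 7. The log2 fold change of dendrites over soma was -1.18 (SE 0.58, adjusted p = 0.164), which lay 0.32 above the median of all genes. Its direction turned to 0.32 when the dendrite libraries were rescaled to put the median gene at 0. The dendrites of neuron 15 held 0 reads of App, which allows up to 3 of its 2235244 reads, beside 29678 reads in the soma of the same cell. Without neurons 15 and 16 the fold change was -0.86 (SE 0.38, adjusted p = 0.183).

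Aplp1 (chr7:30434982-30445535, minus strand) ranged from 48.8 to 2855 normalised reads in dendrites (median 404) and from 72.6 to 2705 in somas (median 657). The ranges were nearly the same, and the soma was higher in 11 of 16 neurons. Of the 8 genes, Aplp1 and Sod1 were those with at least 10 reads in all 32 libraries. The fold change was -0.28 (SE 0.57, adjusted p = 0.737), 1.21 above the median gene, and it was positive in 4 of the alternatives, from 0.059 when only genes with 10 reads in 16 samples were kept to 1.21 with the median gene at 0. The highest dendrite value came from neuron 15, with 1689 reads, in a library that had no read of App, Aplp2, Sncb, Prnp, Bace1 or Psen2.

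Aplp2 (chr9:31149557-31211815, minus strand) had 0 to 576 normalised reads in dendrites (median 184) and 72.8 to 2037 in somas (median 709). It was higher in the soma in 12 of 16 neurons, and under 10 reads in the dendrites of neurons 12, 13, 14 and 15. The difference was -2.07 (SE 0.92, adjusted p = 0.128), or -0.58 relative to the median gene. DESeq2 called it at -2.46 (SE 0.64, adjusted p = 0.000643). The edgeR value was -1.63 when neurons 15 and 16 were left out (SE 0.81, adjusted p = 0.226).

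The beta-secretase gene Bace1 (chr9:45838580-45864399, plus strand) had 0 to 365 normalised reads in dendrites (median 39.1) and 3.53 to 525 in somas (median 219). It overlaps Rnf214 on the other strand, and the counting used strand. The soma was higher in all neurons but 3, 8 and 14. The gap was wide in neurons 3 and 14, with 181 reads in the dendrites and 3 in the soma of neuron 3, and 224 and 73 in neuron 14. The dendrites of neurons 12, 13, 15 and 16 held no read. The fold change was -2.44 (SE 1.24, adjusted p = 0.171) with edgeR and -2.72 (SE 0.75, adjusted p = 0.00128) with DESeq2. It was -1.84 with edgeR when neurons 15 and 16 were left out (SE 1.15, adjusted p = 0.326).

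Psen2 (chr1:180227004-180263438, minus strand) had the lowest fold change of the 8 genes under each setting tried. It had 0 to 149.8 normalised reads in dendrites, with a median of 0, and 0 to 228 in somas, with a median of 61.1. Reads were present in 7 of 16 dendrites and 14 of 16 somas. In 6 of the 9 neurons whose dendrites held no read of Psen2, the soma held 82 to 716 reads. A count of 0 in these 9 dendrites allows a level of up to 0.431 to 2.67 CPM, depending on the depth of the library. The fold change was -4.95 (SE 1.72, adjusted p = 0.0652), which was -3.46 relative to the median gene and at percentile 4.52 of all genes tested. It was called without neuron 5 (-5.47, adjusted p = 0.0384) and by DESeq2 (-4.53, adjusted p = 4.08e-05). It was not called without neurons 15 and 16 (-3.96, SE 1.79, adjusted p = 0.191). Neurons 2, 6 and 13 had the higher level in the dendrites, and neuron 6 the widest gap, with 35 reads in the dendrites and 1 in the soma.

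Sncb (chr13:54758860-54766595, minus strand) had 0 to 281 normalised reads in dendrites (median 129) and 100.4 to 591 in somas (median 211). Only the dendrites of neurons 1, 15 and 16 held fewer than 10 reads. The soma was higher in all neurons but 2, 4 and 13, and the fold change was -0.71 (SE 0.86, adjusted p = 0.566), 0.78 above the median gene. It moved to -0.34 (SE 0.69, adjusted p = 0.775) without neurons 15 and 16, and it turned to 0.78 with the median gene at 0 and to 0.43 in the 4 neurons of 3 rounds alone.

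Prnp (chr2:131909928-131938429, plus strand) had 0 to 1365 normalised reads in dendrites (median 322) and 87.2 to 1446 in somas (median 548). The annotation places Prn on the same strand over Prnp, so reads shared with that gene cannot be told apart here. The soma was higher in 14 of 16 neurons, the most of the 8 genes, and the exceptions were neurons 4 and 6. The dendrites fell into separate levels, with 0 or 1 read in neurons 12, 13, 15 and 16 and 23 to 2265 reads in the other 12. The somas of those 4 neurons held 85 to 6195 reads. The fold change was -1.36 (SE 0.82, adjusted p = 0.242), 0.13 above the median gene. It was -0.91 without neurons 15 and 16 (SE 0.59, adjusted p = 0.342), and it turned to 0.13 with the median gene at 0. DESeq2 called it at -1.68 (SE 0.67, adjusted p = 0.0276).

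Sod1 (chr16:90220754-90226329, plus strand) had 1172 to 12271 normalised reads in dendrites (median 3704) and 1147 to 9440 in somas (median 2038). Its level was higher in the dendrites of all neurons but 2, 12 and 15, and the ranges overlapped. The fold change was 0.82 (SE 0.41, adjusted p = 0.166), which was 2.31 above the median gene and at percentile 88.0 of all genes tested. It was called higher in dendrites with the median gene at 0 (2.31, SE 0.38, adjusted p = 2.46e-05), with genes of at least 10 reads in 16 samples (1.16, SE 0.34, adjusted p = 0.0471) and with counts on exons (1.24, SE 0.39, adjusted p = 0.0461). It was not called without neurons 15 and 16 (0.90, SE 0.26, adjusted p = 0.0581) or by DESeq2 (0.56, SE 0.36, adjusted p = 0.175). Scaf4 overlaps Sod1 on the other strand.

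Spike-in RNA (ERCC) gave another scale for 14 of the neurons, since the sample labels give a dilution of 0 for neurons 1 and 2. The libraries of these neurons held 59 to 80 ERCC reads, and the paper's methods describe spike-in for all tubes. Scaling to ERCC reads was chosen after seeing the data. ERCC reads made up 0.344% to 17.1% of the counted reads in dendrites and 0.0631% to 0.875% in somas. Relative to them, the median gene lay at -4.15 on the log2 scale. On this scale 64.4% of the 9513 genes tested were called higher in somas, and so were 7 of the 8 genes, from -2.74 for Aplp1 (adjusted p = 0.0186) to -7.84 for Psen2 (adjusted p = 0.00378). Sod1 turned to -1.59 (SE 0.84, adjusted p = 0.0801) and was not called. Its median was 0.119 exon reads for each ERCC read in dendrites and 0.296 in somas, and the soma was higher in 11 of 14 neurons. App had medians of 0.0362 and 0.332, with a higher soma in 13 of 14 neurons. The direction of Sod1 thus depended on the scale, being higher in dendrites as a share of the library and lower per spike-in read.

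**Figure D2:**
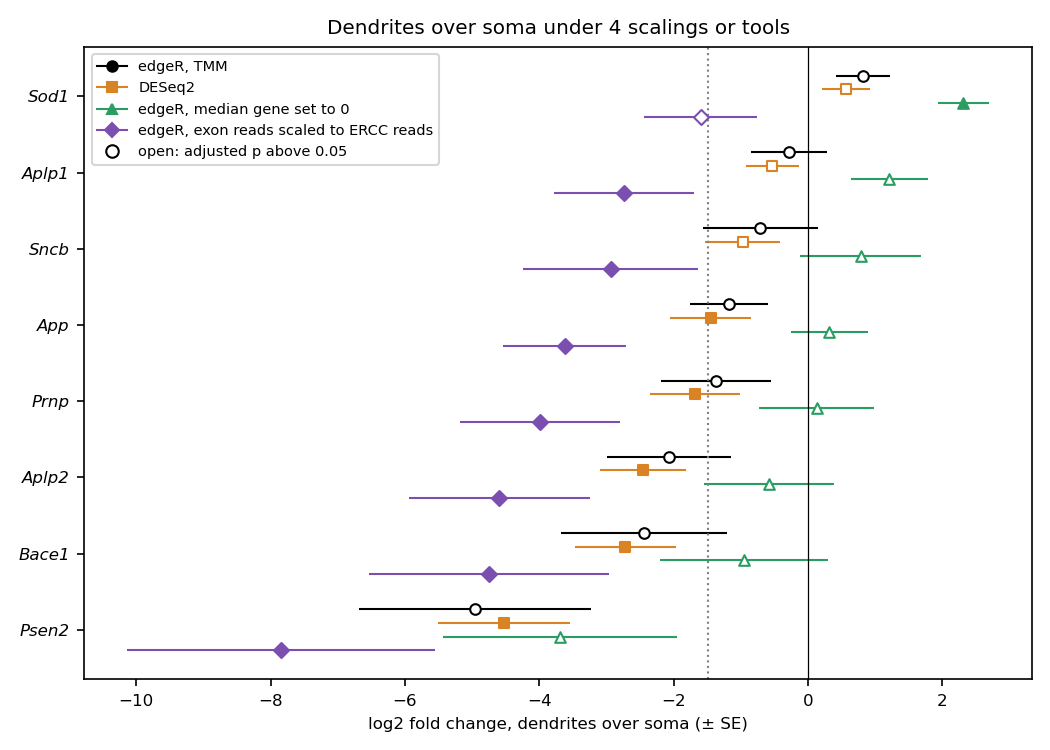
Log2 fold change of dendrites over soma with its SE (horizontal axis) for each gene, from edgeR with TMM (black), DESeq2 (orange), edgeR with the median gene at 0 (green) and edgeR on exon reads scaled to ERCC reads in 14 neurons (purple). Filled symbols have an adjusted p of at most 0.05, and the dotted line marks the median of all genes under TMM, -1.49. Sod1 is rightmost under each of these scalings, and it lies below 0 only when scaled to ERCC reads.

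Ratios between the genes within a library do not depend on how libraries are scaled to each other. The ratio of Sod1 to App reads was higher in the dendrites than in the soma of the same neuron in 14 of 16 neurons. The same held in 14 neurons for Sod1 relative to Sncb, Prnp and Bace1, in 13 relative to Aplp1 and Aplp2, and in 12 relative to Psen2, where 2 neurons had equal products because a count was 0. The ratio of Aplp1 to App was higher in the dendrites in 9 of 16 neurons. These counts are a description, and no test was run on them.

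At a minimum of 10 reads, dendrites held 6.06 ± 1.65 of the 8 genes (SD, n = 16, range 2 to 8) and somas 7.69 ± 0.602 (SD, n = 16, range 6 to 8). All 8 were detected in 2 dendrites, those of neurons 2 and 5, and in 12 somas. The dendrites with the fewest were those of neuron 15, with Aplp1 and Sod1 only, and those of neurons 12 and 16 with 4 each. At least 1 read was present in 15 of 16 dendrites for App, Aplp2 and Sncb, in 16 for Aplp1 and Sod1, in 14 for Prnp, in 12 for Bace1 and in 7 for Psen2.

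The dendritic read fraction, the share of a neuron's normalised reads of a gene that lay in its dendrites, was 0.588 ± 0.147 for Sod1 (SD, n = 16) and ranged from 0.251 to 0.839. Its mean was at percentile 90.6 and its variance between neurons at percentile 3.18 of the genes with a value. The median of that mean over all genes was 0.335. Below Sod1 the order of the means was Aplp1 (0.420 ± 0.179), Sncb (0.367 ± 0.209), App (0.314 ± 0.206), Prnp (0.299 ± 0.211), Bace1 (0.270 ± 0.321), Aplp2 (0.265 ± 0.280) and Psen2 (0.222 ± 0.348 in 13 neurons). From Aplp1 down, neighbours in this order differed by less than the SD of either. The secretases varied most among the 8 genes, with variances at percentiles 60.8 for Psen2 and 49.1 for Bace1 of all genes. They also had the lowest dendrite medians of the 8 genes (0 and 39.1 normalised reads), and Sod1 had the highest (3704). The part of read number in these variances was not tested. Bace1 was at most 0.1 in 7 neurons and at least 0.9 in 2, and Psen2 was at most 0.1 in 9 of 13 neurons and at least 0.9 in 1. Sod1 and Aplp1 were never at or below 0.1. The means ranged from 0.262 for Psen2 to 0.613 for Sod1 when neurons 15 and 16 were left out.

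**Figure D3:**
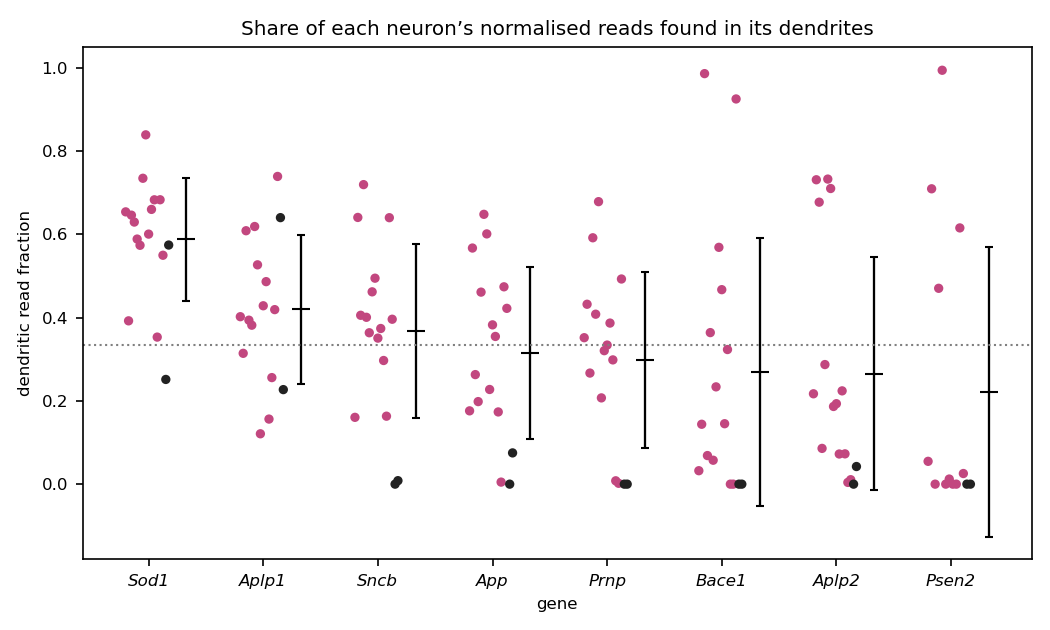
Dendritic read fraction (vertical axis) of each gene in each neuron with at least 10 normalised reads over both compartments, with the mean and SD beside the points. Black points are neurons 15 and 16, and the dotted line is the median of the mean fraction over all genes, 0.335. Sod1 points lie above 0.5 in 13 of 16 neurons, while Bace1 and Psen2 points gather near 0 with a few near 1.

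The 19 3′ ends were counted in windows of the last 500 nt, with closer ends merged. Ends are numbered from the most distal, an order taken from the listed positions of other genes' ends, and the counts themselves carry no coordinates. Aplp1 and Aplp2 had 1 end each, App, Prnp and Sod1 had 2, Sncb and Psen2 had 3, and Bace1 had 5. Of these ends, 10 had a read in at least 16 samples and were tested, 6 had fewer reads and 3 had none. For 6 of the 8 genes a single end held at least 99.1% of the end reads in each compartment. The exceptions were App and Bace1.

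App has a proximal and a distal end, and the distal end is annotated 4758 bases further along the transcript. The last 30 bases of a transcript of each kind are shown because they differ in the signals that direct cleavage and polyadenylation. Both are written 5′ to 3′ on the minus strand from GENCODE M21, and were linked to the counted ends by their number and order, not by a coordinate. They are shown with the hexamers AATAAA and ATTAAA in capitals where they occur, also overlapping. The search covered the transcript's own strand only. The proximal end (App-201, chr16:84954443-84954472 of GRCm38, 3′UTR of 888 bases) and the distal end (App-206, chr16:84949685-84949714, 3′UTR of 5646 bases) read as follows.
App-201, proximal: tacataAATAAATTAAATAAAataactcca
App-206, distal: gtttcaatacagaagaaactgctgaataac
The window of App-201 holds both hexamers, and neither occurs in that of App-206. Among 48042 protein-coding transcripts with an annotated 3′ end, 43.2% hold AATAAA in their last 30 bases, 11.8% hold ATTAAA and 53.5% hold either.

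The proximal end, with those hexamers, carried 95.7% of the App end reads in dendrites and 97.5% in somas. The order of these shares rested on neuron 9, which gave 598 of the 817 distal reads in dendrites. Without it the distal end held 1.87% of the App end reads in dendrites and 2.61% in somas. The proximal end had 0 to 3266 normalised reads in dendrites (median 1370) and 912 to 10165 in somas (median 3275), and the soma was higher in 13 of 16 neurons. Its fold change was -1.44 (SE 0.70, adjusted p = 0.121), and it turned to 0.70 with the median end at 0. The distal end had 0 to 225 normalised reads in dendrites (median 0.664) and 0 to 244 in somas (median 85.0). It reached 10 reads in 5 of 16 dendrites and 13 of 16 somas, and in 1 neuron, neuron 13, it did so in the dendrites (32 reads) but not in the soma (3 reads). Its fold change was -4.62 (SE 2.13, adjusted p = 0.105).

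The distal fraction of App, distal reads over distal and proximal reads, differed between compartments by less than its spread between neurons. It was 0.0291 ± 0.0430 in dendrites and 0.0290 ± 0.0374 in somas (SD, n = 14 neurons with at least 10 reads in both compartments). It was higher in the dendrites in 5 neurons and in the soma in 8, with a mean difference of 0.000106 ± 0.0490 (exact two-sided signed-rank test, p = 0.685). In dendrites it ranged from 0, in 6 neurons, to 0.127 in neuron 1, and in somas from 0 to 0.147 in neuron 6. Without neurons 15 and 16 the difference was 0.000742 (p = 0.791 by the same exact test).

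Bace1 was spread over both of its main ends. Its distal end (end 1) held 31.0% of the Bace1 end reads in dendrites and 45.1% in somas, and the next end (end 2) held 67.9% and 54.6%. The dendrite share rested on single libraries. Of the reads of both ends together, end 1 held 31.4% in dendrites, 3.78% without neuron 14 and 57.1% without neuron 9, beside 45.2% in somas. Not all reads counted for the gene lay in the end windows. The dendrites of neuron 3 had 181 reads of the gene but 1 at each of these ends. Those of neuron 11 had 298 reads of the gene but 0 at end 1 and 4 at end 2. Those of neuron 14 had 224 reads of the gene and 223 at end 1. Shares and fold changes of the ends cover only reads in these windows. End 1 was called higher in somas, with 0 to 351 normalised reads in dendrites (median 0), 0 to 370 in somas (median 65.7) and a fold change of -5.76 (SE 1.70, adjusted p = 0.0227). It was higher in the soma in 14 of 16 neurons. Neuron 5 had no read of it in either compartment, and neuron 14 had 223 reads of it in the dendrites and 0 in the soma, beside 0 and 73 reads of end 2. End 2 had a median of 2.05 in dendrites and 97.2 in somas, was also higher in the soma in 14 neurons and had a fold change of -3.91 (SE 1.44, adjusted p = 0.0519). The positions of the 5 counted Bace1 ends could not be matched to single annotated transcripts, and their sequences are not shown.

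The main end of Psen2 (end 1) was also called higher in somas (-5.42, SE 1.83, adjusted p = 0.0387), with reads in 6 of 16 dendrites and 14 of 16 somas. So 2 of the 10 ends tested were called higher in somas and none higher in dendrites, beside 16.9% and 0.723% of the 10652 ends tested in all, whose median fold change was -2.14. Without neurons 15 and 16 neither remained called, at -5.16 for Bace1 end 1 (adjusted p = 0.0917) and -4.02 for Psen2 end 1 (adjusted p = 0.175), and the main end of Sod1 was then called higher in dendrites (1.08, SE 0.28, adjusted p = 0.0305). With all neurons Sod1 end 1 was at 0.66 (SE 0.46, adjusted p = 0.267).

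**Figure D4:**
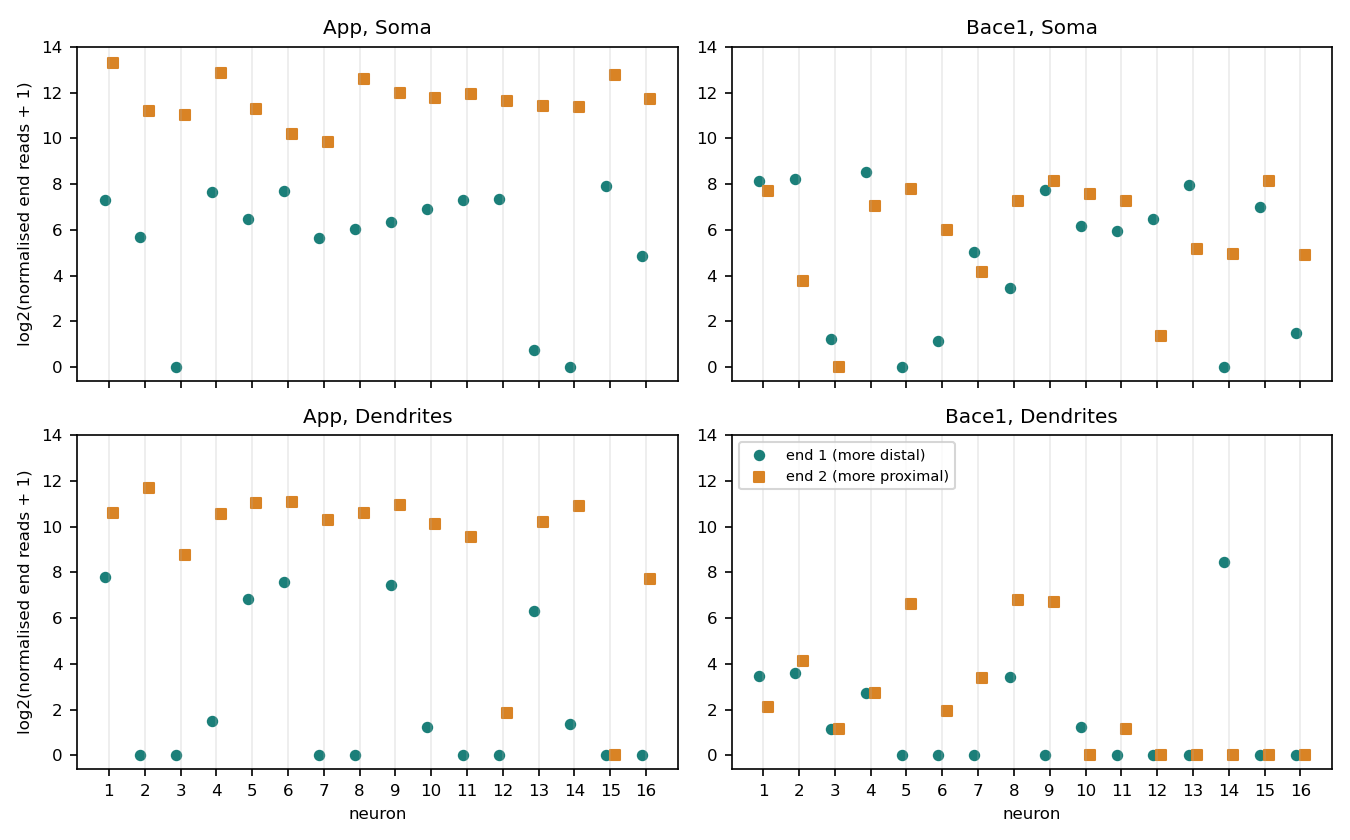
Reads at the distal (end 1, circles) and the next more proximal end (end 2, squares) of App and Bace1 in each neuron, on the vertical axis as log2 of normalised end reads plus 1, for somas (top) and dendrites (bottom). In App the proximal end is higher in each library with App end reads. In Bace1 the leading end changes between neurons, and among the dendrites end 1 is at a high level in neuron 14 alone, while several somas reach a similar level.

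Distal fractions were also tested for Sncb and Sod1, which had a second end with a few reads. The fraction of Sncb was 0.997 ± 0.0105 in dendrites and 0.996 ± 0.00681 in somas (SD, n = 13, exact two-sided signed-rank test, p = 0.275), and that of Sod1 was 1.00 ± 0.00143 and 1.00 ± 0.000112 (SD, n = 16). Only 3 neurons had a difference in Sod1, so that the smallest p the exact test allows is 0.25 and the test is void for it. Neither App nor Sncb had a p under 0.1, beside 8.61% of all 3438 genes tested, of which 0% passed an adjusted p of 0.05. Bace1 reached 10 reads in both compartments in 4 neurons and Psen2 in 3, under the minimum of 5, and were not tested. In Bace1 the fractions of dendrites and soma were 0 and 0 in neuron 5, 0.0821 and 0.0617 in neuron 8, 0 and 0.432 in neuron 9, and 1 and 0 in neuron 14. At a minimum of 5 reads, 7 neurons gave 0.283 ± 0.378 in dendrites and 0.406 ± 0.393 in somas (exact two-sided signed-rank test, p = 0.562).

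The difference between compartments was also compared between the neurons of 2 and of 3 rounds. None of the 8 genes passed edgeR's interaction test, each with an adjusted p of 1, and 0% of the 10880 genes passed, while the unadjusted p was below 0.05 for 288. The log2 ratio of Sod1 in dendrites over soma, on the scale of normalised reads plus 1, had a median of 0.55 with 2 rounds and 0.82 with 3 rounds. For App it was -0.78 and -1.75. The means ran the other way, at 0.57 and 0.48 for Sod1 and at -2.41 and -1.33 for App. The fitted difference of 3 from 2 rounds ranged from 0.17 for Sod1 (SE 0.94) to 2.57 for Aplp2 (SE 2.06), errors that leave room for large differences. Aplp2 was at -2.77 in the neurons of 2 rounds alone and at -0.089 in those of 3 rounds. In the neurons of 3 rounds alone 4 genes of all 13186 tested were called.

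The genes that act on App were described by lists chosen by name. Of 27 such genes, 26 were tested (all but Bace2), 2 were called higher in somas and none higher in dendrites. Over all genes these shares were 5.71% and 0.827%, and 78.8% lay below 0. Of the 26, 24 had a fold change below 0 and 17 lay below the median gene, with a median of -1.92 beside -1.49 over all genes. Of the gamma-secretase subunits, 6 of 6 lay below 0 and 5 of 6 below the median gene, with a median of -3.69. Aph1c, a subunit of that complex with a near-identical copy in Aph1b that makes its unique reads uncertain, was called at -5.39 (SE 1.68, adjusted p = 0.0440). It had 0 to 513 normalised reads in dendrites (median 0) and 0 to 78.3 in somas (median 22.3), and without the block for neuron it turned to 0.33. Apbb3, an adaptor that binds the cytoplasmic tail of App, was called at -4.39 (SE 1.31, adjusted p = 0.0359), with medians of 0.690 and 32.8 and a higher soma in 14 of 16 neurons.

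Without neurons 15 and 16, neither Aph1c nor Apbb3 was called, and Rtn3 (-1.27, adjusted p = 0.0357) and Itm2b (-1.23, adjusted p = 0.0446) were called higher in somas instead. Rtn3, a reticulon that binds beta-secretase, was higher in the soma in 16 of 16 neurons. With all neurons it had a median of 1660 normalised reads in dendrites and 5267 in somas (-1.61, SE 0.53, adjusted p = 0.0521). The scaffold Mapk8ip1 lay at the other end of the list, with a median of 249 in dendrites and 101 in somas and a higher level in the dendrites of 14 of 16 neurons (1.62, SE 0.75, adjusted p = 0.141). It was called higher in dendrites by DESeq2 (1.37, adjusted p = 0.00763), with the median gene at 0 and without the block, and it is named here after its values were seen, as are Rtn3 and Itm2b.

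Of the genes related to Sncb, Prnp and Sod1, 4 of 7 were tested and none was called. Sod2, the mitochondrial superoxide dismutase, was at -1.39 (SE 0.79, adjusted p = 0.217) with medians of 267 and 653 normalised reads, against 0.82 for Sod1. Ccs, the copper chaperone of Sod1, was at -2.68 (SE 1.69, adjusted p = 0.263), and Sprn, a prion-like protein, at -1.01 (SE 0.79, adjusted p = 0.366). The sign of Sod2 and Sprn turned with the median gene at 0.

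Of 24 other neurodegeneration genes, 23 were tested and 4 were called, each higher in somas, beside 5.71% of all genes tested. Of the 23, 22 lay below 0, beside 78.8% of all genes, and their median was -2.07, beside -1.49. Tardbp, the RNA-binding protein TDP-43, was at -4.99 (SE 1.15, adjusted p = 0.0124) and higher in the soma in 16 of 16 neurons, with medians of 20.9 and 768. The kinase gene Tbk1 was at -6.84 (SE 1.58, adjusted p = 0.0127) with medians of 0 and 111. The autophagy receptor gene Optn was at -5.66 (SE 1.39, adjusted p = 0.0159). Without neurons 15 and 16, these 3 genes were also called, and no other gene of the list was.

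**Figure D5:**
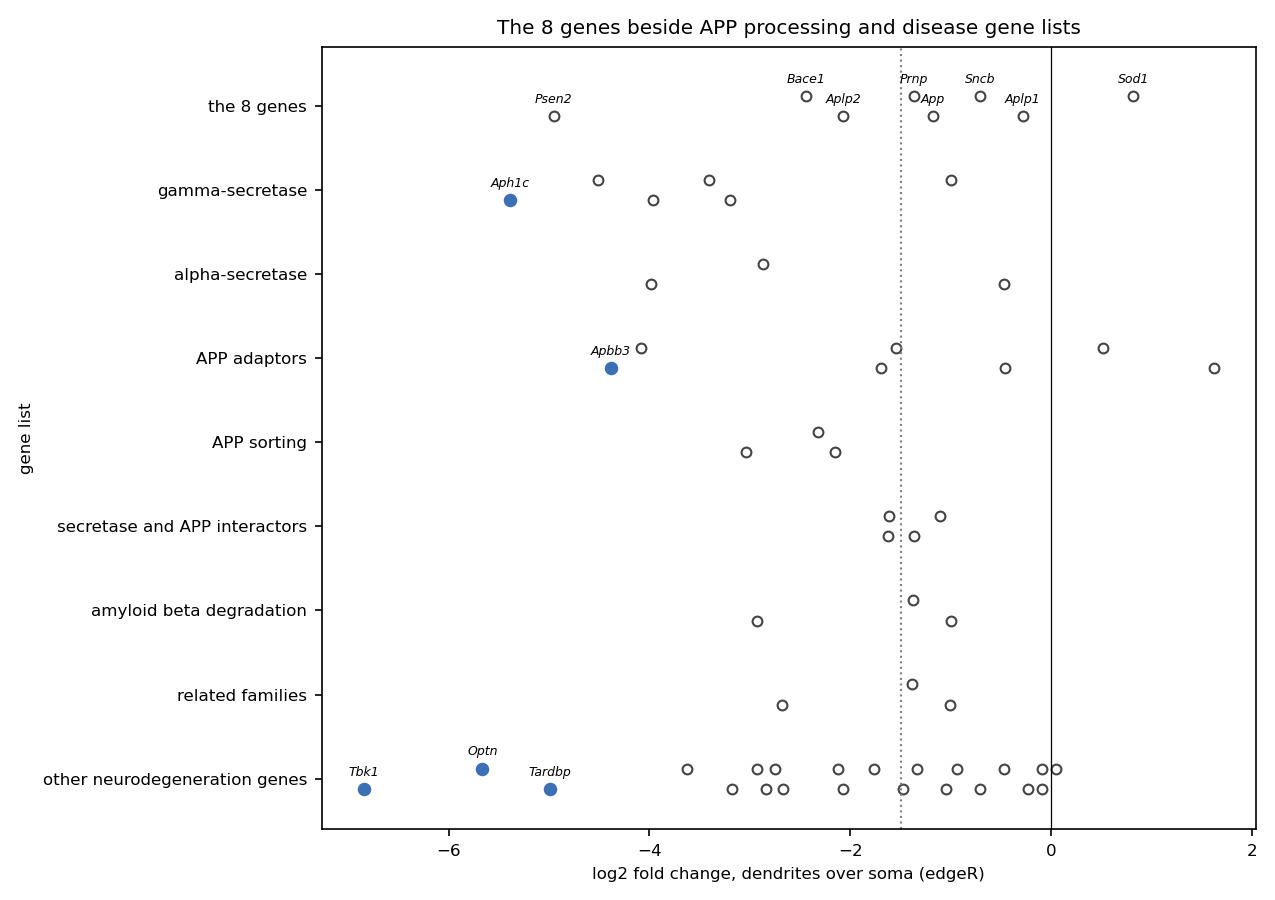
Log2 fold change of dendrites over soma from edgeR (horizontal axis) for the 8 genes and for the listed genes tested, by list, leaving out 2 listed genes. Filled points have an adjusted p of at most 0.05, the solid line is 0 and the dotted line is the median of all genes, -1.49. The 8 genes span -4.95 (Psen2) to 0.82 (Sod1), and the 5 filled points lie at -4.39 or below.

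Across the 32 libraries, which share depth and compartment differences, the levels of the 8 genes correlated with each other at a median Spearman rho of 0.30 over 28 pairs. The highest was App with Psen2 (0.75), followed by App with Aplp2 (0.71), and the lowest was Aplp1 with Sod1 (-0.52). Over the 10880 genes tested, the pattern most like that of App was Dner (0.88), then Serinc1 (0.86). For Aplp1 these were Sprn (0.85) and Prpf8 (0.79), for Aplp2 Sppl3 (0.88) and Elovl4 (0.86), and for Sncb Uap1 (0.75) and Pcyt2 (0.75). Prnp was nearest to Itm2c (0.81) and Ano8 (0.79), Bace1 to Numbl (0.71) and Fbxo3 (0.70), and Psen2 to Ankrd17 (0.82) and D4Wsu53e (0.77). Sod1 was nearest to Ndufb4 (0.84), a subunit of mitochondrial complex I, and 2010107E04Rik (0.78).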

How the data were processed

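Single-neuron dendrite and soma RNA was amplified, sequenced with strand and aligned by the authors to mm10 with STAR 2.4.0. Uniquely mapped reads were counted with VERSE. The deposited values are raw read counts per gene on combined 3′UTRs, per 3′ end (last 500 nt) and on exons with 92 ERCC spike-ins. The aRNA method favours reads near the 3′ end.

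Counts were compared with edgeR 4.0.16 (TMM, glmQLFit with robust fit, neuron as a block, R 4.3.3) over genes or ends that had 1 read or more in 16 or more samples, with Benjamini-Hochberg adjustment over all of them, and with DESeq2 1.42.0 as an alternative. Distal fractions, likeness and fractions used Python 3.11, SciPy 1.17.1 and pandas 2.3.3. The main edgeR test and the signed-rank test were checked on simulated data, the other tests were not. The pairing comes from the cells. Residuals correlated at 0.0885 ± 0.0769 (SD, n = 16) within a neuron and -0.00560 ± 0.0521 (SD, n = 240) between neurons. No libraries were identical. Separate neurons came from several cultures on several days, not labelled per sample.

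The 8 genes and the lists were chosen with earlier results of these data known. The text names the 8 genes, their ends, the list genes called (or the 3 of lowest p where none was) and, for each gene, the 2 of highest Spearman correlation. Settings that leave out neurons 15 and 16 or scale to ERCC reads were added after seeing the data. Protein sequences and a genome were not used here, and 2 listed genes are counted with their lists but not reported singly.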

Additional observations from a re-analysis of the deposited data

Results flagged for a closer look

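Among the 4 neurons amplified in 3 rounds, the log2 ratio of Sod1 in dendrites over soma was -0.63 in neuron 2, and the other 3 lay from 0.76 to 0.92. The gap was 0.901 of the range of the 4 values. The ratio of each of the 8 genes was looked at in this way, and a gap wide enough to be listed here arises by chance in about 1 of 20 groups.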

How the results depend on the processing

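Of the 96 values of the 8 genes under other settings, 70 kept their direction and their side of the threshold, 16 passed the threshold where the reported value did not, and 10 changed sign. With the median gene at 0, App was at 0.32, Aplp1 at 1.21, Sncb at 0.78 and Prnp at 0.13, and of the list genes Sod2 was at 0.11 and Sprn at 0.49. Aplp1 was at 0.059 with 10 reads in 16 samples, at 0.17 on exon counts and at 0.15 with 3 rounds alone, where Sncb was at 0.43 and Prnp at 0.0028. Sod1 was at -1.59 when scaled to ERCC reads. With the median end at 0, end 1 of Aplp1 was at 1.63, end 2 of App at 0.70, end 1 of Prnp at 0.76 and end 1 of Sncb at 1.30. The cause was not tested.

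The number of the 8 genes called higher in dendrites went from 0 to 1 with the median gene at 0, with 10 reads in 16 samples and on exon counts. These settings called 5.04%, 1.24% and 1.0% of all genes in that direction. The number called higher in somas went from 0 to 5 with DESeq2, 1 without neuron 5 and 7 when scaled to ERCC reads, settings that called 46.2%, 8.93% and 64.4% of all genes in that direction. Of the ends, 1 was called higher in dendrites with the median end at 0 and without neurons 15 and 16, beside 6.5% and 0.698% of all ends. Ends called higher in somas numbered 7 with DESeq2 and 1 with 2 rounds alone, settings that called 60.2% and 8.87% of all ends so. They numbered 0 with the median end at 0, with no block for neuron, without neurons 15 and 16 and with 10 reads in 16 samples. Bace1 end 1 did not pass that filter and has no value there.

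Of the genes that act on App, DESeq2 called 18 higher in somas and 1 in dendrites, the median gene at 0 gave 0 and 2, no block for neuron 0 and 1, and 2 rounds alone 0 in somas. Of all genes, DESeq2 called 46.2% higher in somas and 4.26% in dendrites, and the median gene at 0 gave 0.846% and 5.04%. No block gave 0.708% and 1.44%, and 2 rounds alone gave 2.88% in somas. DESeq2 called 2 related genes and 16 other neurodegeneration genes higher in somas. The median gene at 0 gave 2 of the latter and 1 higher in dendrites, and no block gave 2. Without the block Aph1c was at 0.33. The block changed no call of the 8 genes, but it changed sizes. Without it Psen2 was at -1.96 (SE 1.12), Bace1 at -0.73 (SE 0.81) and the median of all genes at -0.22. From raw reads, the dendritic read fraction was 0.221 for Aplp1 and 0.361 for Sod1. The distal fractions of App and Sncb had no p under 0.1 under any setting, and the neurons of 2 rounds gave no test for Sod1. A count of 0 sets only an upper limit for Psen2 in 9 dendrites and for Bace1 in 4.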
